A study of Mus musculus with 16 samples.

Results

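Olfactory mucosa detects odorants through sensory neurons, and this experiment asked which transcripts move with an odor whichever sorted cell fraction carries them. All 16 arrays of the series, 16 of 16, entered the comparison: for each of 8 pools the log2 signals of its GFP+ and its GFP- array were averaged, and the 4 pools given the odor were compared with the 4 given vehicle. The mice, 24 in all and 3 to a pool, carried the S100a5-tauGFP reporter in every group, were of both sexes and were 7 to 12 weeks old. The odor was 1-pentanethiol, an odorous thiol, and the vehicle was filtered air. Animals sat singly in chambers of flowing clean air for 40 h, and from 26 h on the stimulus came in pulses of 10 s every 20 min. The name 1-pentanethiol is that of the sample labels and the title; the design text of the series has bourgeonal instead, and the labels were followed. The 4 groups of 4 arrays were Odor GFP+, Odor GFP-, Vehicle GFP+ and Vehicle GFP-.

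An odorant that binds its receptor raises cAMP in the cilia of the neuron, opens cation channels and lets calcium in, and sustained activity changes the transcription of a set of slowly responding genes. S100a5, which encodes a calcium-binding protein of olfactory neurons, is one of them, and its reporter therefore marks neurons with recent activity. Other activity-dependent genes of these neurons encode adhesion and guidance molecules, among them protocadherins, semaphorins and Kirrel proteins, which are known for the sorting of axons into glomeruli. Since each neuron expresses mainly 1 odorant receptor gene, receptor transcripts report which neurons are in a fraction, whereas the activity-dependent genes can be read in neurons of many receptors.

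As models the samples have limits. A pool mixes 3 mice, so the spread among single mice is not seen, and the fractions are defined by the reporter. The GFP- fraction still held mature neurons: Omp, the olfactory marker protein, had a log2 signal of 18.14 to 18.34 on the GFP- arrays and 18.21 to 18.41 on the GFP+ arrays. It also held other cells, since 5 neutrophil markers had a summed level (log2 of the summed linear signals) of 17.70 to 18.69 on GFP- arrays and 9.42 to 11.46 on GFP+ arrays. The average gives both fractions the same weight, whatever number of cells each held. Signals were read for 22206 probe sets, whose median per pool ran from 7.60 to 7.64. Negative control probe sets had a median of 6.08 to 6.29 in 7 pools and 6.65 in vehicle pool 2, whose GFP+ array stood apart at 7.28. Pool averages of 1 stimulus correlated across probe sets with r from 0.993 to 0.996, and those of an odor and a vehicle pool with r from 0.993 to 0.997.

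Of the 22206 probe sets, 4 passed a Benjamini-Hochberg adjusted p of 0.05 in limma (0.018% of those tested), 3 higher with the odor (0.0135%) and 1 lower (0.0045%). The 3 that rose were Pcdh10, Camk2n1 and Sema7a, and the 1 that fell was the odorant receptor gene Olfr1284. Without adjustment, 818 probe sets had a p under 0.05 (3.68%), 484 of them higher (2.18%) and 334 lower (1.5%). Within fractions, 17 probe sets passed in GFP+ cells, all higher (0.0766%), and 11 in GFP- cells (0.0495%), 2 of them higher (0.00901%) and 9 lower (0.0405%). Changes are differences in log2 signal, odor minus vehicle, with the SE from limma and n = 4 pools per stimulus.

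Pcdh10 encodes protocadherin-10, an adhesion protein of the delta-protocadherin family, and is known to depend on activity in olfactory neurons. In GFP+ cells its log2 signal was 14.07, 13.96, 13.29 and 13.52 in odor pools 1 to 4 and 9.36, 8.41, 10.81 and 10.29 in the vehicle pools. In GFP- cells it was 12.40, 12.03, 11.49 and 11.53 with the odor and 8.28, 8.29, 8.91 and 8.85 without. Every odor array lay above every vehicle array, across fractions as well as within them, and the vehicle pools spread more widely in GFP+ than in GFP- cells. The pool average was higher with the odor by 3.64 ± 0.31 (12.4-fold, 95% interval 2.96 to 4.32, adjusted p = 0.00397). Within the fractions the change was 3.99 ± 0.38 in GFP+ cells (adjusted p = 0.000122) and 3.28 ± 0.38 in GFP- cells (adjusted p = 0.000776), from the same arrays. The change in GFP+ less that in GFP- cells was 0.71 ± 0.32, with an interval of -0.01 to 1.42 (adjusted p = 0.906). In sorted bulk cells, more cells of a type and more RNA per cell cannot be told apart.

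Camk2n1 encodes an inhibitor protein of calcium/calmodulin-dependent protein kinase II. Its log2 signal in GFP+ cells was 10.49, 11.21, 10.46 and 11.16 with the odor and 7.89, 8.01, 8.68 and 8.02 with vehicle. In GFP- cells the values were 10.64, 9.81, 9.42 and 9.60 with the odor and 8.60, 8.69, 9.12 and 8.08 with vehicle. The groups were apart in both fractions, by a wide gap in GFP+ cells and by a narrow one in GFP- cells, where odor pool 3 lay just above vehicle pool 3. The pool average rose by 1.96 ± 0.19 (3.90-fold, interval 1.54 to 2.38, adjusted p = 0.00768). The change was 2.68 ± 0.28 in GFP+ cells (adjusted p = 0.000165) and 1.24 ± 0.28 in GFP- cells (adjusted p = 0.301). The difference of these changes, 1.44 ± 0.34 with an interval of 0.68 to 2.19, had an unadjusted p of 0.00158 and an adjusted p of 0.498 over all probe sets in the limma fit.

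Sema7a encodes a membrane-anchored semaphorin that acts in the formation of synapses with bulb neurons. Its GFP+ arrays read 15.46, 15.31, 14.81 and 15.35 with the odor and 13.77, 13.70, 13.93 and 13.98 with vehicle. Its GFP- arrays read 14.37, 14.19, 13.78 and 14.23 with the odor and 13.32, 13.02, 13.17 and 13.19 with vehicle. Odor pool 3 was the lowest odor pool in both fractions, yet above every vehicle array of its fraction. The pool average rose by 1.18 ± 0.14 (2.26-fold, interval 0.88 to 1.48, adjusted p = 0.0195), with 1.39 ± 0.15 in GFP+ cells (adjusted p = 0.000323) and 0.97 ± 0.15 in GFP- cells (adjusted p = 0.0225). The difference between the fractions was 0.42 ± 0.16, with an interval of 0.07 to 0.77. In limma it had an unadjusted p of 0.0243 and an adjusted p of 0.859 over all probe sets.

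The replicate number was taken to pair odor and vehicle pools, and with it as a block the adjusted p in limma was 0.0342 for Pcdh10, 0.0538 for Camk2n1, 0.0538 for Sema7a and 0.0530 for Olfr1284. The changes themselves are the same in that fit. The blocked fit called 3 genes, Pcdh10 and the receptor genes Olfr1395 and Olfr165. Pcdh10 passed without any single pool. Camk2n1 missed the threshold without odor pool 2 (adjusted p = 0.0544) and without vehicle pool 1 (0.0508). Sema7a passed without odor pool 3 (0.00528) and missed it without any other single pool, with an adjusted p of up to 0.130.

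**Figure D1:**
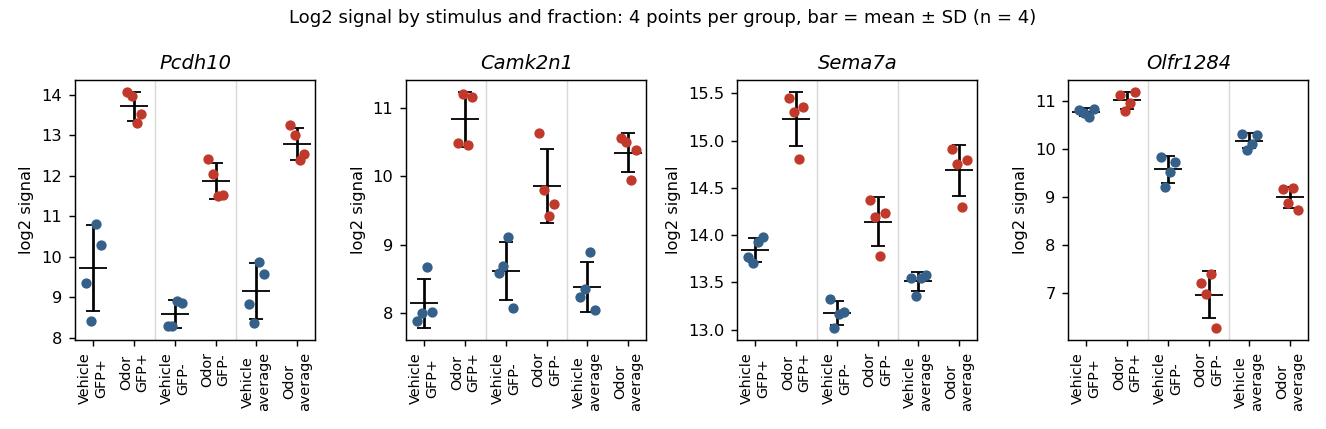
Log2 signal (vertical axis) of the 4 genes past the threshold, in vehicle (blue) and odor (red) samples of the GFP+ arrays, the GFP- arrays and their pool averages. Each point is 1 array or pool, and bars give the mean ± SD of n = 4. For Pcdh10 all odor points lie above all vehicle points, while for Olfr1284 the groups are apart in GFP- cells and in the averages but overlap in GFP+ cells.

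The sequence just before the start of some genes with a higher mean with the odor in both fractions is shown to let their elements be compared. RefSeq promoter windows on GRCm38.p6 were matched by symbol for 20 of 27 genes looked up, and the 250 bases before the start are given 5′ to 3′ on the strand of the gene for Pcdh10 (chr3:45378148-45378397, plus strand), Sema7a (chr9:57939862-57940111, plus strand), Cadm3 (chr1:173367696-173367945, minus strand) and S100a5 (chr3:90608272-90608521, plus strand).
Pcdh10: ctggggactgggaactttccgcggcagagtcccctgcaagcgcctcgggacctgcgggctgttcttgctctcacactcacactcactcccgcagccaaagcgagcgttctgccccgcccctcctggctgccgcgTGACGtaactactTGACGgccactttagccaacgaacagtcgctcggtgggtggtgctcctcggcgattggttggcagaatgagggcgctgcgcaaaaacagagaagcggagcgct
Sema7a: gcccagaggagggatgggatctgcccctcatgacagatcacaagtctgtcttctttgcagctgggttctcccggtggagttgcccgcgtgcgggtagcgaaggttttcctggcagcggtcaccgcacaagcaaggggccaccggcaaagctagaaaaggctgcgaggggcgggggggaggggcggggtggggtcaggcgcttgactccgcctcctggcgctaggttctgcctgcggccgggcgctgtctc
Cadm3: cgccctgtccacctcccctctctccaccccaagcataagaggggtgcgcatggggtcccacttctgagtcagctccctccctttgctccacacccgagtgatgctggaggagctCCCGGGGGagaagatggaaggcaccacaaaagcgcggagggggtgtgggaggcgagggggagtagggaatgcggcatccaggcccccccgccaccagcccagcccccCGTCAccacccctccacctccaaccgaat
S100a5: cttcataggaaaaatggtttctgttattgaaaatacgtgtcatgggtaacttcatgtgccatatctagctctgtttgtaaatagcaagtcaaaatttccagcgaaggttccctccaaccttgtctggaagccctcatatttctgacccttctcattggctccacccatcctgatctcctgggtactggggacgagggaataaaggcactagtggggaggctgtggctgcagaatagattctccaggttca
Capitals mark matches to the motifs searched on both strands. These were the full cAMP response element TGACGTCA, its shorter form TGACG that the full element contains, the core CCCNNGGG of sites of Ebf (Olf-1) factors, and the TATA box TATAAA.

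The Pcdh10 window held TGACG at positions -116 to -112 and again at -103 to -99, counted from the base before the start as -1. Cadm3 held TGACG on the other strand, as CGTCA at -29 to -25, and the Ebf core as CCCGGGGG at -136 to -129. No match was found in these letters of the Sema7a and S100a5 windows. Windows not printed were searched too. Kcnh6, Vmn1r124, Lgals3bp, Rem2, Gabra4 and Kirrel2, also higher on average in both fractions, held no TGACG on either strand. Cfap52, lower with the odor, and Fos each held it more than once. The printed windows are a choice, so no rate of matches can be read from them. Of 32851 windows of the same length, 17.8% held TGACG on either strand and 11.8% the Ebf core, against 1.55% for TGACGTCA and 12.4% for TATAAA. A match describes letters, not a bound site.

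Among genes that did not pass, 7 were taken by smallest p from those higher in all 4 odor pools than in all 4 vehicle pools with the same direction in both fractions. Non-overlapping pool averages were not rare, since 316 probe sets had them with the odor higher (1.42% of those tested) and 230 with it lower (1.04%). Fewer, 15 probe sets (0.0675%), had non-overlapping arrays in both fractions in the same direction, 11 higher (0.0495%) and 4 lower (0.018%). The 11 were Pcdh10, Camk2n1, Sema7a, Cadm3, Tmem132a, Kcnh6, Sgsm2, Hsd17b3, Dyrk4, Strc and Snw1, and the 4 were Tmem176a, Snx8, Dop1b and Rassf4. Kcnh6, Hsd17b3 and Strc had a mean signal below the negative control median. Sgsm2, Hsd17b3, Dyrk4, Strc, Snw1, Dop1b and Rassf4 are named here after their values were seen.

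Cadm3 encodes a neuronal cell adhesion molecule of the nectin-like family. It read 11.85, 11.75, 11.47 and 11.12 in odor GFP+ cells, 10.51, 10.45, 10.77 and 10.77 in vehicle GFP+ cells, 11.07, 11.18, 11.14 and 10.84 in odor GFP- cells, and 10.61, 10.35, 10.40 and 10.23 in vehicle GFP- cells. The groups did not overlap in either fraction, and odor pool 4 was the lowest odor pool in both. The pool average differed by 0.79 ± 0.12 (1.73-fold, adjusted p = 0.143). Without odor pool 4 the adjusted p in limma was 0.0451, and without any other single pool it was 0.355 to 0.669. With the replicate block it was 0.307. Tmem132a, a transmembrane protein gene, differed by 1.01 ± 0.19 (adjusted p = 0.552), with odor pool averages of 9.83 to 10.22 and vehicle averages of 8.39 to 9.39. Its lowest vehicle value came from the pool whose GFP+ array stood apart in the negative controls. Without that array, in limma on 15 arrays with the pool as a random block, the change was 0.84 (adjusted p = 0.0268). The same kind of fit on all 16 arrays gave an adjusted p of 0.154.

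Kcnh6, which encodes a voltage-gated potassium channel of the ether-a-go-go family, differed by 0.79 ± 0.16 (adjusted p = 0.718), at a mean signal of 6.17, just below the negative control median of 6.25. Rem2, an activity-regulated small GTPase of neurons, differed by 0.50 ± 0.10 (adjusted p = 0.720), with 0.76 ± 0.13 in GFP+ and 0.24 ± 0.13 in GFP- cells. Lgals3bp, a secreted galectin-binding protein gene, differed by 0.69 ± 0.14, Gabra4, a GABA-A receptor subunit gene, by 0.53 ± 0.11, and Vmn1r124, a vomeronasal receptor gene, by 0.49 ± 0.10. None of these passed, and Gabra4 and Vmn1r124 lay below the negative control median in mean signal.

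S100a5 was the gene behind the reporter. It read 17.11, 17.11, 17.07 and 17.11 in odor GFP+ cells against 16.55, 16.62, 16.67 and 16.82 in vehicle GFP+ cells, and 16.36, 16.18, 15.77 and 16.12 in odor GFP- cells against 15.78, 15.88, 15.70 and 15.81 in vehicle GFP- cells. The GFP+ arrays were apart by stimulus, whereas in GFP- cells odor pool 3 fell among the vehicle pools. The pool averages, 16.42 to 16.73 with the odor and 16.16 to 16.32 without, differed by 0.37 ± 0.10 (unadjusted p = 0.00302, adjusted p = 1.00). The change was 0.44 ± 0.12 in GFP+ and 0.31 ± 0.12 in GFP- cells, with a difference of 0.12 ± 0.18.

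Read against the list of slowly activity-dependent genes, 24 probe sets of 25 listed genes were measured. Of these 24, 3 passed higher and 0 lower, and 7 had an unadjusted p under 0.05 higher, namely Pcdh10, Camk2n1, Sema7a, Cadm3, Rem2, Selenom and S100a5. Over all probe sets 0.0135% were called higher and 2.18% were higher at the unadjusted level. The list had 1 call with the replicate block, Pcdh10. The median change was 0.09, against 0.01 over all probe sets, 0.22 in GFP+ and 0.05 in GFP- cells, and 15 of 24 changes were positive. Camk2n1, Sema7a, Cadm3, Rem2, Selenom and Tulp1 had been listed with results of these arrays known. The counts and the median are therefore not independent of the arrays, and their distance from the values over all probe sets tests nothing. Among the 7, Pcdh10 and S100a5 are the members outside that group, but the lists as a whole were chosen with earlier results known. The fractions were also sorted by the S100a5 reporter. Of the 7, Selenom, a selenoprotein gene named after its value was seen, had pool averages of 13.48 to 13.76 with the odor and 13.01 to 13.37 without. Its change of 0.41 ± 0.11 (adjusted p = 1.00) was made of 0.80 ± 0.13 in GFP+ and 0.02 ± 0.13 in GFP- cells.

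The other members of the list did not reach an unadjusted p under 0.05 in the higher direction. Kirrel2, whose homophilic adhesion protein sorts olfactory axons, had odor averages of 14.44, 14.40, 13.45 and 14.17 and vehicle averages of 12.53, 13.98, 14.16 and 13.99, a change of 0.45 ± 0.34. Its vehicle pool 1 lay far below the rest, and without it the change was 0.07. Kirrel3, which is known to run opposite to Kirrel2 among olfactory axons, gave -0.03 ± 0.16 and Efna5, an ephrin gene, -0.21 ± 0.15. Plxnc1, the gene of a Sema7a receptor, gave 0.08 ± 0.19.

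**Figure D2:**
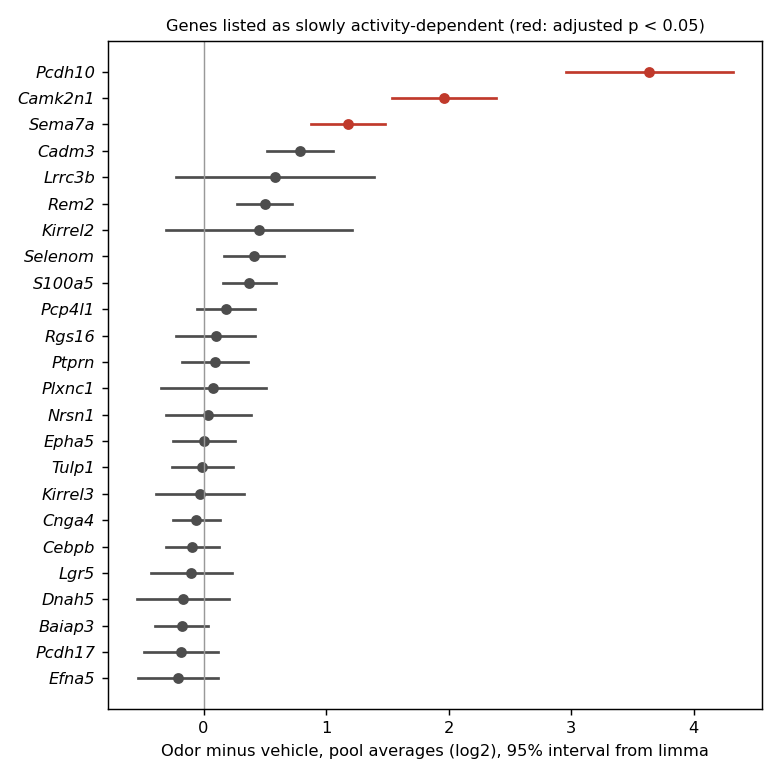
Change of the pool average with odor (horizontal axis, log2, odor minus vehicle) for the 24 measured genes of the slowly activity-dependent list. Points are estimates, lines are 95% intervals from limma with n = 4 pools per stimulus, and red marks an adjusted p under 0.05. The 3 red genes stand at 1.18 and above, and most of the others span 0.

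The families of the 3 genes were described next. Among 10 delta-protocadherin genes, 1 passed, Pcdh10, and the median change was -0.06. The other members had changes of -0.23 to 0.07, and Pcdh17, another adhesion gene of the family, gave -0.18 ± 0.14 with overlapping pools. Among 30 semaphorins and their receptors, Sema7a alone passed higher and 0 passed lower, and 2 (6.67%) were higher at an unadjusted p under 0.05. The second was Sema3d at 0.29 ± 0.09 and a mean signal of 5.89, below the negative control median. Over all probe sets 0.0135% passed higher and 2.18% were higher at the unadjusted level. The median of this list was -0.05. Among 16 genes of CaM kinases, calmodulins and their regulators, Camk2n1 passed and the median was -0.003. Its paralog Camk2n2 gave -0.01 ± 0.13, and Camk2a, a kinase subunit gene, -0.27 ± 0.14. Whether these 3 genes differ from their families was not tested, since the lists were built around them.

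Immediate-early genes, which respond within minutes and decay fast, did not pass in any of 32 probe sets. Their median change was 0.05, 21 of 32 changes were positive, and Fosl1 was the 1 probe set with an unadjusted p under 0.05, at 0.21 ± 0.09. That is 3.1% of the list, against 2.18% of all probe sets higher at that level. Fos had pool averages of 10.98, 12.28, 10.93 and 13.16 with the odor and 11.48, 12.25, 10.67 and 13.31 with vehicle, a change of -0.09 ± 0.59. Pools of the same replicate number had like values in both stimuli, with pools 2 and 4 high and pools 1 and 3 low. In GFP- cells Fos reached 12.90 to 15.77, against 8.45 to 11.21 in GFP+ cells. Egr1 followed the same order of pools and changed by 0.37 ± 0.57.

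The fall in Olfr1284, an odorant receptor gene, came from 1 fraction. In GFP- cells it read 7.21, 6.99, 7.41 and 6.28 with the odor and 9.83, 9.22, 9.53 and 9.74 with vehicle, whereas in GFP+ cells it read 11.13, 10.79, 10.97 and 11.19 with the odor and 10.82, 10.76, 10.68 and 10.85 with vehicle. The GFP- groups were far apart and the GFP+ groups overlapped. The pool average fell by 1.18 on the log2 scale, with an SE of 0.13 and an adjusted p of 0.0169. The change was 0.24 ± 0.20 in GFP+ cells (adjusted p = 0.833) and -2.61 ± 0.20 in GFP- cells. The test of the difference between fractions gave 2.85 ± 0.28 (adjusted p = 0.00229), so the change of this receptor was not alike in both. The average kept its call without odor pools 1, 3 or 4 or vehicle pool 2, and lost it without odor pool 2 (adjusted p = 0.117) or vehicle pools 1 (0.0912), 3 (0.0817) or 4 (0.0851).

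**Figure D3:**
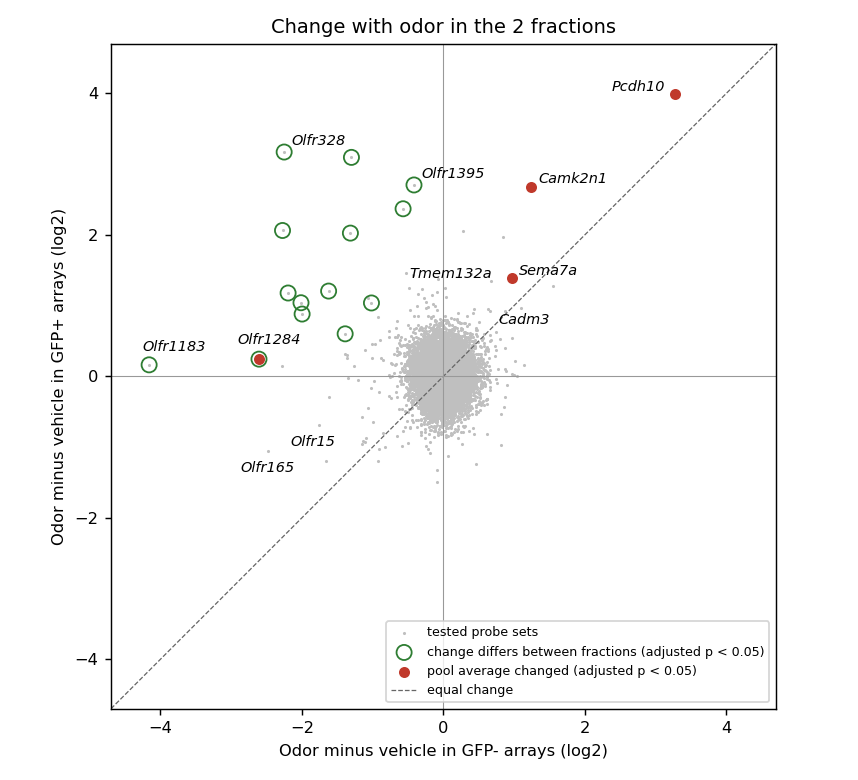
Change with odor (log2, odor minus vehicle, means of 4 arrays each) in GFP- cells (horizontal axis) and GFP+ cells (vertical axis) for the 22206 probe sets (grey). Red marks the 4 probe sets whose pool average changed, green rings the 14 whose change differed between fractions, and the dashed line is an equal change. Pcdh10, Camk2n1 and Sema7a lie in the upper right, while the ringed receptors lie in the upper left.

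The comparison of the changes between fractions called 14 probe sets (0.0630% of those tested), all with the higher change in GFP+ cells and all odorant receptors. They were Olfr330, Olfr195, Olfr1395, Olfr1212, Olfr286, Olfr1183, Olfr1193, Olfr1284, Olfr1279, Olfr325, Olfr328, Olfr1396, Olfr224 and Olfr175. In the pool average 8 of them were lower and 6 higher, with changes from -2.00 for Olfr1183 to 1.15 for Olfr1395. Olfr328 shows how opposite changes met in the average. It read 14.17, 13.79, 13.26 and 13.49 in odor GFP+ cells and 10.12, 10.66, 12.29 and 8.94 in vehicle GFP+ cells, but 10.57, 10.46, 9.68 and 9.24 in odor GFP- cells and 12.75, 12.26, 11.64 and 12.30 in vehicle GFP- cells. It was higher with the odor in one fraction and lower in the other, by 3.17 and -2.25, and its pool average changed by 0.46 ± 0.29. Olfr1396 had a pool-average change of 0.01 ± 0.11 from changes of 1.04 and -1.02.

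Olfr1183 had the lowest pool-average change of the odorant receptors. Its GFP+ arrays overlapped, 11.11 to 11.87 with the odor and 10.28 to 12.38 with vehicle, and its GFP- arrays did not, 5.58 to 7.50 against 10.30 to 11.10. The average differed by -2.00 ± 0.31 (adjusted p = 0.143). In Olfr1395 the change lay in the other fraction, with GFP+ values of 13.89 to 14.72 with the odor and 11.01 to 11.96 with vehicle, and overlapping GFP- values of 13.78 to 14.26 and 14.12 to 14.66. Its average differed by 1.15 ± 0.16, with an adjusted p of 0.0890 and of 0.0342 with the replicate block.

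Olfr165 and Olfr15 had lower means with the odor in both fractions. Olfr165 read 11.22, 10.31, 12.12 and 11.13 in odor GFP+ cells against 12.69, 11.57, 12.53 and 12.21 in vehicle GFP+ cells, and 7.97, 7.89, 8.08 and 7.49 in odor GFP- cells against 10.80, 9.83, 10.07 and 10.62 in vehicle GFP- cells. The GFP+ groups overlapped and the GFP- groups were apart. The average differed by -1.76 ± 0.24 (adjusted p = 0.0882, and 0.0342 with the replicate block), from -1.05 ± 0.32 in GFP+ and -2.47 ± 0.32 in GFP- cells. It passed without odor pool 3 (0.0328) or vehicle pool 2 (0.0411) and not without any other single pool.

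Olfr15 read 14.59 to 14.94 in odor GFP+ cells against 14.92 to 15.86 with vehicle, and 10.34 to 12.05 in odor GFP- cells against 12.58 to 12.97. Its average differed by -1.22 ± 0.19 (adjusted p = 0.143), with -0.68 ± 0.28 in GFP+ and -1.76 ± 0.28 in GFP- cells. Olfr1209 differed by -0.63 ± 0.14, nearly all of it in GFP- cells (-1.21 ± 0.23). Named after their values were seen, Olfr1394 differed by -1.07 ± 0.20 and Olfr1206 by 1.16 ± 0.26. Olfr725, also named so, had a lower mean in both fractions, overlapping in GFP- cells, with an average of -0.97 ± 0.25. None passed in this average.

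**Figure D4:**
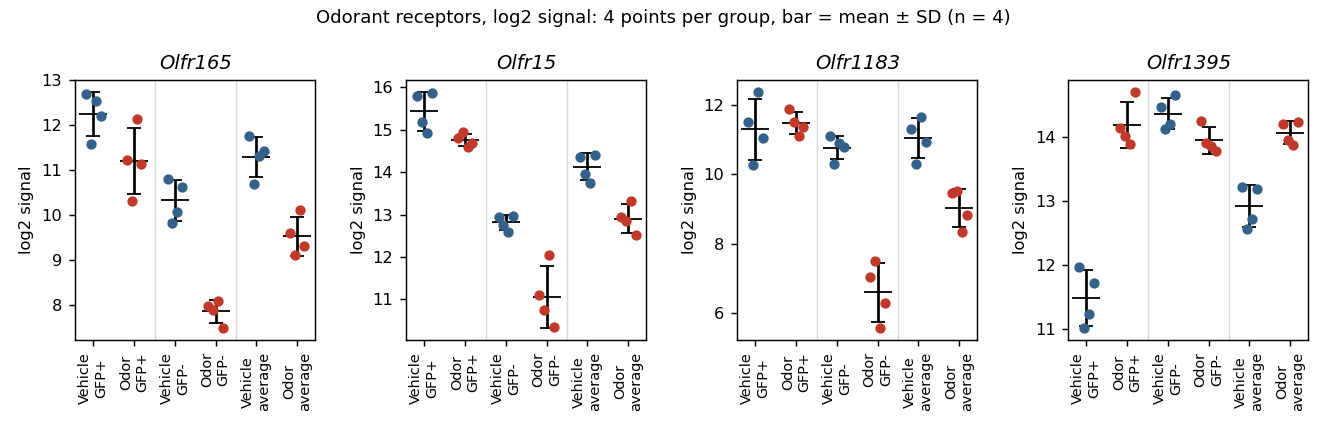
Log2 signal (vertical axis) of the odorant receptor genes Olfr165, Olfr15, Olfr1183 and Olfr1395 in vehicle (blue) and odor (red) samples, for GFP+ arrays, GFP- arrays and pool averages. Points are arrays or pools, and bars are the mean ± SD of n = 4. Olfr165 and Olfr15 have lower means with the odor in both fractions, with overlapping points in GFP+ cells. Olfr1183 is lower in GFP- cells, and Olfr1395 is higher in GFP+ cells.

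The whole receptor family had a median change of 0.03. Of 1080 odorant receptor probe sets, 0 passed higher and 1 lower in limma. At an unadjusted p under 0.05, 33 were higher (3.06%) and 30 lower (2.78%), against 2.18% and 1.5% of all probe sets. Their pool averages did not overlap in 13 higher and 12 lower, 2.31% of the family against 2.46% of all probe sets. The median change of the family was -0.05 in GFP+ and 0.10 in GFP- cells. The 15 trace amine receptor probe sets had a median of 0.15 with 0 past the threshold and 0 at an unadjusted p under 0.05.

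Transcripts of the transduction cascade and of neuronal maturity did not pass. Among 20 transduction genes, 0 passed and 0 had an unadjusted p under 0.05, changes ran from -0.12 to 0.15, and their median was 0.01 at a median signal of 16.26. Pde1c, the ciliary phosphodiesterase gene, had non-overlapping pool averages at a change of 0.11 ± 0.08. Among 25 mature neuron genes the median was 0.02 with 0 passing and 0 at the unadjusted level, and Omp gave 0.04 ± 0.08. For Omp the interval of -0.15 to 0.22 bounds what the 8 pools can show. Immature neuron genes gave a median of -0.07 over 20 genes, again 0 and 0, and Gap43, the growth-associated gene, -0.29 ± 0.31.

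Genes other than receptors that were lower with the odor did not pass. Tmem176a, a transmembrane protein gene, read 6.79, 6.97, 7.06 and 7.18 in odor GFP+ cells against 7.50, 7.35, 7.74 and 7.41 with vehicle, and 8.94, 8.78, 8.59 and 9.21 in odor GFP- cells against 9.32, 9.49, 9.41 and 9.32. The groups were apart in both fractions, and the change was alike, -0.50 ± 0.14 and -0.51 ± 0.14, with -0.50 ± 0.11 in the average (adjusted p = 0.825). Snx8, a sorting nexin gene, gave -0.37 ± 0.09, Mrc2, a collagen receptor gene, -0.47 ± 0.11, Cfap52, a cilia-associated protein gene, -0.41 ± 0.10, Ccdc62 -0.41 ± 0.10 and Xlr -0.53 ± 0.12, the last at a mean signal of 5.74, below the negative control median of 6.25. Each of these had an adjusted p of 0.889 or more.

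Markers of other cells were read beside these values. In the list of macrophage and MHC class II genes 16 of 19 changes were negative, with a median of -0.23 against 0.01 over all probe sets. Of the 19, 0 passed and 3 (15.8%) were lower at an unadjusted p under 0.05 in limma, against 1.5% of all probe sets. The 3 were C1qb at -0.40 ± 0.13, Fcer1g at -0.55 ± 0.21 and C1qa at -0.33 ± 0.14. The summed level of 3 defining macrophage markers was 9.56 to 10.13 on odor GFP+ arrays and 10.18 to 10.66 on vehicle GFP+ arrays, with no overlap, and 10.51 to 11.49 against 10.81 to 11.58 in GFP- cells. Cd68, also chosen as a macrophage marker, was not measured under a single symbol. The marker sets of the other cell types overlapped in both fractions, so this separation was picked from many sets. The part of the macrophage markers in the lower genes was not tested. The mature neuron markers overlapped between stimuli, at 20.04 to 20.10 and 19.89 to 20.10 in GFP+ and 19.97 to 20.03 and 19.93 to 19.99 in GFP- cells. None of the markers of any cell type checked passed the threshold in the average.

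The list of all 31 protocadherins held 1 call, Pcdh10 again, and 2 members (6.45%) lower at an unadjusted p under 0.05. The other remaining lists held 0 calls in the limma fit. Counts at an unadjusted p under 0.05 stand beside 2.18% higher and 1.5% lower over all probe sets. Of 17 sustentacular genes 0 had an unadjusted p under 0.05, and Cyp2g1, a sustentacular cytochrome P450 gene, gave -0.01 ± 0.23. Of 27 xenobiotic and oxidative defence genes 3 were higher at that level, Gpx2 at 0.39, Gclc at 0.25 and Gstm1 at 0.39. Of 20 genes of sulfur and thiol metabolism 0 were, with a median of 0.09 and changes of -0.10 to 0.37. Interferon-stimulated genes gave 1 of 16, Usp18 at 0.45, and heat shock genes 1 of 10, Hspa1b at 0.34. Unfolded protein response genes gave 0 of 16, respiratory chain genes 0 of 28 and cytosolic ribosomal proteins 1 of 60, with medians of -0.01, 0.03 and -0.01. Vomeronasal receptors gave 16 higher and 10 lower of 323, of which 313 lay below the negative control median.

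A change over 1 on the log2 scale in either direction was seen in 19 probe sets, and 7 of them were odorant receptors. Some of the others varied widely between pools of 1 stimulus. Bpifb9a, a secreted gland protein gene named after its values were seen, read 9.43, 15.20, 13.44 and 15.77 in odor pools 1 to 4 and 9.91, 10.57, 12.62 and 15.08 in vehicle pools. The odorant-binding protein gene Obp1a read 7.95, 7.19, 7.46 and 8.88 with the odor and 8.74, 9.91, 9.37 and 7.70 with vehicle, a change of -1.06 ± 0.46 (unadjusted p = 0.0411, adjusted p = 1.00). The groups overlapped for both genes, and the change of Obp1a stayed negative without any single pool, at -1.47 to -0.74.

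The 5 probe sets whose pool averages, after the mean of each stimulus was removed, ran most like those of Pcdh10 were Kbtbd7, Fam78a, Tpp1, Stk32c and Dsg1b, with Pearson r of 0.981, 0.959, 0.957, 0.956 and 0.955 over 8 pools. The pools share 4 replicate numbers, and the 5 were picked as the highest of all probe sets. None of the 5 passed, with changes from -0.10 to 0.17, and Stk32c and Dsg1b lay below the negative control median.

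**Figure D5:**
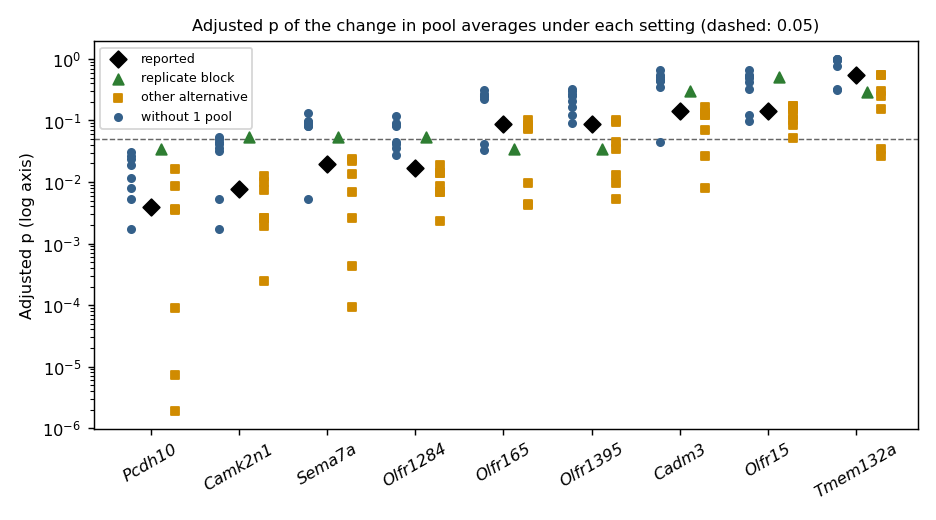
Adjusted p of the change in pool averages (vertical axis, log scale) for 9 genes, as reported (black), with the replicate block (green), without 1 pool at a time (blue) and under the other alternatives (orange); the dashed line is 0.05. Pcdh10 lies under the line throughout, Camk2n1, Sema7a and Olfr1284 cross it with the block and without some pools, and Olfr165 and Olfr1395 fall under it with the block.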

How the data were processed

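Clariom S arrays measured RNA of GFP+ and GFP- cells sorted from each of 8 pools of 3 mice. The deposited values are log2 signals per probe set, for which the submitters' processing notes name Affymetrix Expression Console. Its version and the normalization method were not given in the sources used here. No further scaling or filter was applied. The number of arrays limits the precision. Gene names came from the platform annotation, which gave 19572 of 22206 tested probe sets exactly 1 symbol. The other 2634 had none or more than 1 and were left unnamed.

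The GFP+ and GFP- values of each pool were averaged and odor was compared with vehicle in limma 3.58.1 (R 4.3.3; empirical Bayes, 10.7 total degrees of freedom), two-sided, with Benjamini-Hochberg adjustment over all 22206 probe sets and a threshold of 0.05. The same was done with the GFP+ minus GFP- difference of each pool. Changes within a fraction came from 1 fit of the 4 group means to 16 arrays, with no term for the pool. That fit treats the GFP+ and GFP- array of a pool as independent. It has 1 spread per probe set for all 4 groups, so the SE is the same in both fractions. P-values of the average and of the difference rest on the spread between pools. In every fit limma draws the spread toward a value common to all probe sets.

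Replicate numbers were taken to pair odor and vehicle pools, but the main fits have no such block. Deviations of same-numbered pool averages from their stimulus means correlated across probe sets with r of 0.303, 0.103, 0.244 and 0.298. Each was above the r with any other number. The labels give no reason for the pairing. The Y-linked transcripts Uty and Kdm5d also went with the number, with Uty at 4.60 in odor pool 3 and 4.72 in vehicle pool 3. For the GFP+ minus GFP- differences (-0.05 to 0.16) and the GFP+ arrays not every r was over 0.1. The same number did not always have the highest r. On GFP+ arrays replicate 3 had 0.06, against up to 0.20 with another number. On GFP- arrays replicate 4 had 0.22, against up to 0.24.

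Named were genes past the threshold; up to 10 per direction by smallest p with non-overlapping pool averages and equal signs in both fractions, said not to pass; up to 14 whose change differed between fractions; S100a5, Pcdh10, Sema7a, Kirrel2, Camk2n1, Omp, Fos, Egr1, Gap43 and Cyp2g1; up to 2 members per gene list by smallest p; and the 5 most like Pcdh10. Exceptions are marked. The members and lists were chosen with earlier results of these data known. Alternatives were a replicate block, 3 rescalings, a filter on low signal, an intensity trend, a random pool effect and leaving out pools. The fit was tested on simulated data with 100 probe sets changed by 1 and 100 by 2 on the log2 scale. It recovered 89% and 99% of them, with 6 false calls. The noise was drawn independently for each pool, without pairing by replicate number. With that many changed probe sets the adjustment is less strict than in the real data. The shares therefore do not say how many real changes of these sizes were found.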

Additional observations from a re-analysis of the deposited data

Results flagged for a closer look

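In 9 of 138 groups of 4 pool averages examined, 1 pool lay apart from the other 3 by Dixon's criterion, which chance meets in about 1 of 20 groups. Sema7a was lowest in vehicle pool 2 at 13.36, against 13.55 to 13.58 in the others. Kirrel2 was lowest in vehicle pool 1 at 12.53, against 13.98 to 14.16. Tmem176a was highest in odor pool 4 at 8.19, against 7.82 to 7.88. The receptor Olfr195 was lowest in vehicle pool 4 at 9.84, against 10.70 to 10.86, and Olfr1212 highest in vehicle pool 1 at 11.53, against 10.83 to 10.92. The complement gene C1qb was lowest in odor pool 2 at 7.53, the protocadherin gene Pcdhb13 highest in odor pool 2 at 6.50, and the plexin gene Plxna4 lowest in odor pool 4 at 11.66. Mlip was highest in vehicle pool 1 at 11.63, against 5.38 to 5.48 in the other vehicle pools.

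The change with odor was higher in GFP+ than in GFP- cells for 14 odorant receptors in limma, each past an adjusted p of 0.05. On the log2 scale the difference was 5.42 for Olfr328, 4.40 for Olfr195, 4.34 for Olfr224, 4.32 for Olfr1183, 3.37 for Olfr330, 3.34 for Olfr1193 and 3.12 for Olfr1395. It was 3.05 for Olfr325, 2.94 for Olfr1279, 2.88 for Olfr286, 2.85 for Olfr1284, 2.83 for Olfr1212, 2.05 for Olfr1396 and 1.99 for Olfr175.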

How the results depend on the processing

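The average called 4 probe sets; it called 8 with the receptor medians of the arrays set equal, 8 with all 16 arrays and the pool as a random block, and 9 without the GFP+ array of vehicle pool 2. With the pool as a random block Olfr165, Olfr1395, Cadm3 and Olfr1183 were added, and Tmem132a too without that array. Leaving out 1 pool gave 1 to 5 calls in the average, 1 without odor pool 2 or vehicle pool 1 and 2 without vehicle pool 3 or 4. It gave 10 to 12 in the difference between fractions, 7 to 15 in GFP+ cells and 7 to 11 in GFP- cells. In GFP- cells the main count of 11 became 17 with equal receptor medians. The replicate block gave 3 in the average, 15 in the difference between fractions, 15 in GFP+ and 12 in GFP- cells; beside those named in the report it moved no call of a named gene in the average. Pcdh10 was called in all 16 alternatives, with a change of 3.37 to 3.87.

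The sign turned for genes near 0. Without the GFP+ array of vehicle pool 2, Olfr1396 gave -0.041 and Cyp2g1 0.15, and with equal receptor medians Cyp2g1 gave 0.00146. Leaving out 1 pool gave ranges of -0.044 to 0.10 for Olfr1396, -0.37 to 0.16 for Olfr224, -0.53 to 0.37 for Fos, -0.10 to 0.81 for Egr1 and -0.18 to 0.21 for Cyp2g1. Mlip gave -1.96 to 0.12, the latter without vehicle pool 1. The cause was not tested. Mean signals below the negative control median limit Kcnh6, Gabra4, Vmn1r124, Olfr1279, Xlr, Sema3d, Hsd17b3, Strc, Stk32c, Dsg1b and Tulp1.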

Other observations

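Secretory genes of the olfactory glands, named here after their values were seen, differed widely between pools of 1 stimulus. The lipocalin genes Obp2a, Lcn3 and Lcn4 had pool averages of 11.89 to 15.17, 6.23 to 8.76 and 6.69 to 10.19 with the odor, and of 13.45 to 15.22, 7.06 to 8.83 and 8.25 to 9.80 with vehicle. Bpifb9b, a secreted lipid-binding protein gene, had 11.69 to 17.30 with the odor and 12.43 to 17.00 with vehicle. In odor pool 1 the GFP+ and GFP- arrays of Bpifb9b read 11.74 and 11.64, and in odor pool 4 they read 17.09 and 17.51, so both fractions of a pool were alike.

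Mlip, a muscle-enriched lamin-interacting protein gene, read 11.36 and 11.90 on the GFP+ and GFP- arrays of vehicle pool 1 and between 5.01 and 5.93 on the other 14 arrays. Uty, a Y-linked gene, read 4.60 in odor pool 3 and 4.72 in vehicle pool 3 and 9.35 to 11.58 in the other 6 pools. Kdm5d, another, read 4.78 and 4.50 in those pools and 7.04 to 9.55 in the others. In both pools numbered 3 both genes lay below the negative control median of 6.25. The labels say that mice of both sexes were used and give no ratio per pool. A probe set without a single gene symbol changed by more than 1 on the log2 scale without passing, and its pool averages overlapped.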
